A study of Mus musculus with 6 samples.

Results

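The genes described here are 10 transcription factors that shape effector regulatory T cells: Prdm1, which encodes BLIMP-1, the interferon regulatory factors Irf4 and Irf8, the basic leucine zipper genes Batf, Batf3 and Nfil3, the basic helix-loop-helix genes Bhlhe40 and Bhlhe41, the nuclear receptor gene Pparg and the zinc finger gene Zeb2. They were chosen by gene name, and each matched 1 row among the 49585 genes of the deposited expression table. Regulatory T cells (Tregs) are CD4 T cells that express the transcription factor FOXP3 and hold immune responses in check.

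RNA came from splenic Tregs of C57BL/6 mice aged 7 weeks, sorted as B220-, CD4+ and YFP+ cells, and the design text of the series adds CD25+. All cells were then cultured for 24 hours on plate-bound antibodies against CD3 and CD28, so both groups consist of stimulated cells. There were 3 libraries labelled Bach2-cKO, from mice described as deficient in Bach2, and 3 labelled WT, from Bach2-sufficient mice. The labels give neither the promoter that drives Cre, nor the deleted part of Bach2, nor whether each numbered library is from a mouse of its own. The p-values therefore reflect the scatter among these libraries alone, and that scatter may be technical.

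BLIMP-1 is a zinc finger repressor that marks effector Tregs and is needed in them for much of their interleukin-10. IRF4 and IRF8 bind DNA weakly alone and join BATF or BATF3, which pair with JUN proteins, at composite elements that carry an AP-1 site next to an IRF site. BACH2 is itself a basic leucine zipper repressor, binds sites that overlap those of AP-1 factors, and represses Prdm1 in B cells, which gives the comparison its question: how these regulators stood in stimulated Tregs of the Bach2-cKO label.

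The Prdm1 promoter is shown first because Prdm1 had the largest difference of the 10 genes, and because it was 1 of the 9 members with a RefSeq promoter entry on GRCm38.p6 (Bhlhe40 had none). The window runs over the 250 bases before the start site, chr10:44458749-44458998, minus strand, inside the annotated extent of the gene but free of annotated exons. The sequence is printed 5′ to 3′ with matches to TGANTCA in capitals, a pattern (N for any base) that takes in AP-1 and BATF type sites.
Prdm1 promoter: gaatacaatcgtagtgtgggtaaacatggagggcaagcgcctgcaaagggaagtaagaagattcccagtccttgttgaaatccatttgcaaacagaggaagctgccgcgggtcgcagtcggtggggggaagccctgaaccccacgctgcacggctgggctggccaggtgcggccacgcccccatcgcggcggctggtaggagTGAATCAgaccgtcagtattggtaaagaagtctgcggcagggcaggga
The capitals mark TGAATCA, whose first base lies 48 bases before the start site. The match has A at the N, where the Zeb2 matches below have G or C, and was not tested as a site of AP-1 or BATF. The second gene by size of difference, Nfil3, is shown for contrast, over chr13:52981090-52981289 on the minus strand, 200 bases of its window that are free of annotated exons.
Nfil3 promoter: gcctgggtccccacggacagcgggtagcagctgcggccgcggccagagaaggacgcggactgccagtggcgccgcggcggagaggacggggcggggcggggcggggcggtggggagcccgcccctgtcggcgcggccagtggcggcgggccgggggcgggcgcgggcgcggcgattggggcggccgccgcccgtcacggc
This stretch has no TGANTCA match, and 84.0% of its bases are G or C, against 59.2% in the Prdm1 window and a median of 52.4% over all windows. Zeb2 had matches in the window of a start site inside the gene, most of which is annotated as exon, so each is shown with 10 bases on either side, at chr2:45110450-45110476 and chr2:45110393-45110419, minus strand.
Zeb2 match farther from the start: cgcctagcctTGAGTCAagcagtctta
Zeb2 match nearer the start: tcaggagttaTGACTCAttttgaagat
TGANTCA, read on both strands, occurs in 6.749% of the 32851 windows of this length, so a match is a description and not a binding site. Longer forms were absent from the 15 member windows: TGANTCAGC, a form found in MAF recognition elements (1.02% of all windows), the AP-1 and IRF composite of GAAA directly followed by TGANTCA (0.1005%), the interferon response core of GAAA, any 2 bases and GAAA (2.977%) and the D box TTANGTAA bound by NFIL3 (2.061%). The E box CACGTG, which BHLHE40 and BHLHE41 bind, is in 6.021% of windows and occurred in those of Batf3 and Bhlhe41. Both are shown with flanking bases, at chr1:191098164-191098182, plus strand, and chr6:145865558-145865583, minus strand. The Batf3 stretch lies wholly in annotated exon, inside the annotated extent of the gene, and the Bhlhe41 stretch has 1 of its 26 bases in annotated exon.
Batf3 E box: tgcCACGTGacttccacga
Bhlhe41 E box: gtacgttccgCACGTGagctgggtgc

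Values are FPKM, fragments scaled to transcript length and to the library total, and tests were run on log2(FPKM + 1) over the 13766 genes that reached 1 FPKM in 3 or more libraries, with Benjamini-Hochberg adjustment over all of them. A gene passed at an adjusted p under 0.05. All 10 regulators were above that filter in every library, so none entered the test through 1 group alone. Over all tested genes 15.3% passed, 7.02% higher and 8.31% lower in Bach2-cKO libraries, and the median log2 fold change was -0.017. Of the 10 regulators, 5 rose (Prdm1, Nfil3, Bhlhe41, Zeb2 and Batf), none fell, and the other 5 did not pass. The median log2 fold change over the 10 was 0.55.

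Library totals recovered from the FPKM steps were 27703735 to 31976067 reads in Bach2-cKO libraries and 27697735 to 43884431 in WT libraries. The labels separated along the first principal component (55.0% of the variance), with Bach2-cKO replicate 3 nearest to the WT side of its own group. Bach2 itself had 88.9, 105 and 121 FPKM in Bach2-cKO libraries, against 112, 111 and 99.4 FPKM in WT libraries (log2 fold change -0.048, limma adjusted p = 0.812). Its RNA therefore did not separate the labels, and since the deleted part is not given this value does not check them. Foxp3 was present in every library, at 112, 104 and 153 FPKM in Bach2-cKO libraries and 127, 108 and 113 FPKM in WT libraries. The sort was against B220, yet the 12 B cell markers summed to 1716 to 2201 FPKM in Bach2-cKO libraries and 1192 to 1658 FPKM in WT libraries, so B cell RNA was present in both groups. In bulk RNA, fewer cells of a type and less RNA per cell cannot be told apart.

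Prdm1 had the largest log2 difference of the regulators. It had 39.2, 35.5 and 34.9 FPKM in Bach2-cKO libraries, against 11.5, 10.04 and 16.6 FPKM in WT libraries. Every Bach2-cKO library was above every WT library, with WT replicate 3 the highest of its group. The means were 36.5 ± 2.30 FPKM in Bach2-cKO and 12.7 ± 3.43 FPKM in WT (SD, n = 3 each), and Prdm1 rose by 1.48 on the log2 scale (SE 0.16, 95% interval 1.10 to 1.86, limma adjusted p = 0.00154). On the FPKM scale its mean level was above that of 71.2% of tested genes in Bach2-cKO libraries, against 44.9% in WT libraries. The gene lies at chr10:44437177-44528501 on the minus strand of GRCm38 and overlaps no other annotated gene.

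The partners of the AP-1 and IRF composite elements differed less. Irf4, the IRF that effector Tregs depend on, had 64.7, 72.5 and 71.0 FPKM in Bach2-cKO libraries, against 62.1, 62.8 and 59.7 FPKM in WT libraries. The groups did not overlap but lay close together, and Irf4 did not pass, with a log2 fold change of 0.17 (SE 0.064, unadjusted 95% interval 0.020 to 0.32, limma adjusted p = 0.120). The upper bound of that interval is below the lower bound for Prdm1.

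Irf8, the IRF known from B cells and dendritic cells, was the most abundant of the 10 regulators, with 512, 511 and 354 FPKM in Bach2-cKO libraries, against 349, 274 and 321 FPKM in WT libraries. Bach2-cKO replicate 3 lay just above the highest WT library, and the other Bach2-cKO libraries lay well above it. Irf8 did not pass (log2 difference 0.53, SE 0.16, limma adjusted p = 0.0611). Without Bach2-cKO replicate 3 it passed, at 0.71 (adjusted p = 0.00669), and limma-voom on recovered reads gave 0.53 (adjusted p = 0.0311). These were the only 2 of 13 alternative fits in which Irf8 passed, and the limma adjusted p ranged up to 0.373. Irf8 overlaps Gm20388 on the same strand, so its reads may be shared.

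Batf, the leucine zipper partner of JUN and IRF4, had 88.9, 87.5 and 62.7 FPKM in Bach2-cKO libraries, against 52.8, 44.8 and 61.4 FPKM in WT libraries. Bach2-cKO replicate 3 exceeded WT replicate 3 by a small margin, and the groups did not overlap. The means were 79.7 ± 14.8 FPKM in Bach2-cKO and 53.0 ± 8.30 FPKM in WT (SD, n = 3 each), and Batf rose by 0.57 on the log2 scale (SE 0.16, limma adjusted p = 0.0492). Batf lies at chr12:85686669-85709087 on the plus strand. Its call stood at the threshold: it was lost without Bach2-cKO replicate 1, Bach2-cKO replicate 2, WT replicate 1 or WT replicate 2, with adjusted p between 0.0104 and 0.151 over the 6 fits that leave out a library, and at a pseudocount of 0.1 it was 0.0513.

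Batf3, the BATF paralogue that the cross-presenting dendritic cell lineage needs, had 32.2, 22.1 and 24.4 FPKM in Bach2-cKO libraries, against 22.5, 23.6 and 22.1 FPKM in WT libraries. The groups overlapped, with only Bach2-cKO replicate 1 well above the rest, and Batf3 did not pass (log2 fold change 0.18, 95% interval -0.12 to 0.49, limma adjusted p = 0.385). Within a library, the log2 ratio of Batf3 to Batf averaged -1.57 ± 0.33 in Bach2-cKO and -1.18 ± 0.27 in WT (SD, n = 3 each). The groups overlapped in that ratio (exact two-sided permutation p = 0.2, 0.25 adjusted over the 5 ratios tested).

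Nfil3 encodes a basic leucine zipper repressor of D box genes that natural killer cell development needs. It had 67.9, 72.8 and 60.3 FPKM in Bach2-cKO libraries, against 22.8, 24.8 and 29.8 FPKM in WT libraries. The lowest Bach2-cKO library lay far above the highest WT library, again replicate 3. The means were 67.0 ± 6.29 FPKM in Bach2-cKO and 25.8 ± 3.60 FPKM in WT (SD, n = 3 each), and Nfil3 rose by a log2 fold change of 1.35 (SE 0.11, 95% interval 1.09 to 1.61, limma adjusted p = 0.000571). This was the smallest adjusted p of the 10 regulators. Nfil3 lies at chr13:52967209-52981073 on the minus strand and overlaps no other annotated gene.

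Zeb2, a zinc finger repressor known from terminally differentiated effector CD8 T cells, had 24.5, 26.8 and 28.1 FPKM in Bach2-cKO libraries, against 15.2, 19.2 and 14.9 FPKM in WT libraries. All Bach2-cKO libraries were above all WT libraries, and here replicate 3 was the highest of the Bach2-cKO group. The means were 26.5 ± 1.85 FPKM in Bach2-cKO and 16.4 ± 2.43 FPKM in WT (SD, n = 3 each), and Zeb2 rose by a log2 fold change of 0.66 (SE 0.11, 95% interval 0.41 to 0.92, limma adjusted p = 0.00791). The gene, at chr2:44983632-45117395 on the minus strand, overlaps Zeb2os on the opposite strand, and the sources used here do not say whether counting used strand. Its paralogue Zeb1, outside the 10, fell to 29.1 ± 3.05 FPKM in Bach2-cKO libraries, against 42.8 ± 5.15 FPKM in WT libraries (log2 fold change -0.54, limma adjusted p = 0.0169).

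The helix-loop-helix pair differed in level and in call. Bhlhe41, also called DEC2 and a repressor at E boxes, had 8.69, 11.2 and 6.67 FPKM in Bach2-cKO libraries, against 3.77, 5.02 and 5.54 FPKM in WT libraries. The groups did not overlap, though Bach2-cKO replicate 3 and WT replicate 3 lay close together. Bhlhe41 rose by a log2 fold change of 0.76 (SE 0.19, 95% interval 0.31 to 1.21, limma adjusted p = 0.0382), but of the 6 fits that leave out a library only the fit without Bach2-cKO replicate 3 passed (adjusted p = 0.0152), and the others ranged up to 0.124. Bhlhe40, also called DEC1 and a factor that activated T cells use for cytokine control, had 78.5, 65.8 and 75.5 FPKM in Bach2-cKO libraries, against 65.8, 72.1 and 57.1 FPKM in WT libraries. The groups overlapped, and Bhlhe40 did not pass (log2 fold change 0.17, 95% interval -0.064 to 0.41, limma adjusted p = 0.297). Bhlhe41, at chr6:145858243-145865558 on the minus strand, overlaps Gm43909, and Bhlhe40 overlaps 0610040F04Rik, each on the opposite strand.

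Pparg, the nuclear receptor gene that defines Tregs of visceral fat, was the lowest of the regulators. It had 4.82, 6.27 and 4.01 FPKM in Bach2-cKO libraries, against 2.79, 2.22 and 4.82 FPKM in WT libraries, values that rest on 130 to 234 recovered reads in Bach2-cKO libraries and 80 to 156 in WT libraries. WT replicate 3 lay among the Bach2-cKO values, so the groups overlapped. Pparg did not pass (log2 fold change 0.53, 95% interval -0.033 to 1.08, limma adjusted p = 0.186), and that interval also holds the estimates of Batf and Zeb2.

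**Figure D1:**
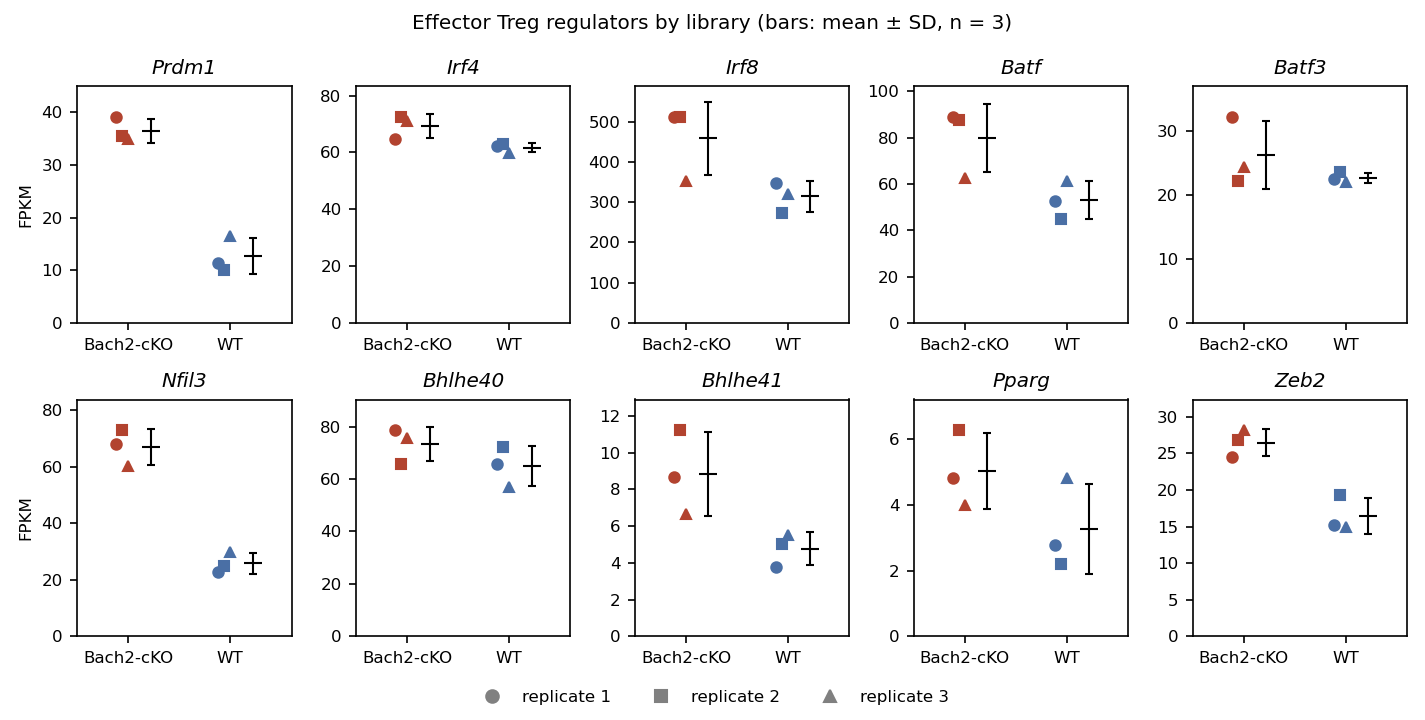
Each panel plots 1 regulator in FPKM on a linear axis from 0, with 3 Bach2-cKO libraries on the left and 3 WT libraries on the right, symbols for the replicate numbers and bars for mean ± SD. Prdm1 and Nfil3 stand far apart between the labels (36.5 against 12.7 and 67.0 against 25.8 FPKM), while Batf3, Bhlhe40 and Pparg overlap.

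Counted over the panels by library, 7 of the 10 regulators had all Bach2-cKO libraries above all WT libraries and none had them all below. Over all tested genes the groups did not overlap in 35.6%, with Bach2-cKO above in 15.5% and below in 20.1%. The 7 are the 5 that rose plus Irf4 and Irf8. Bach2-cKO replicate 3 had the lowest value of its group for Prdm1, Irf8, Batf, Nfil3, Bhlhe41 and Pparg, and WT replicate 3 the highest of its group for Prdm1, Batf, Nfil3, Bhlhe41 and Pparg.

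**Figure D2:**
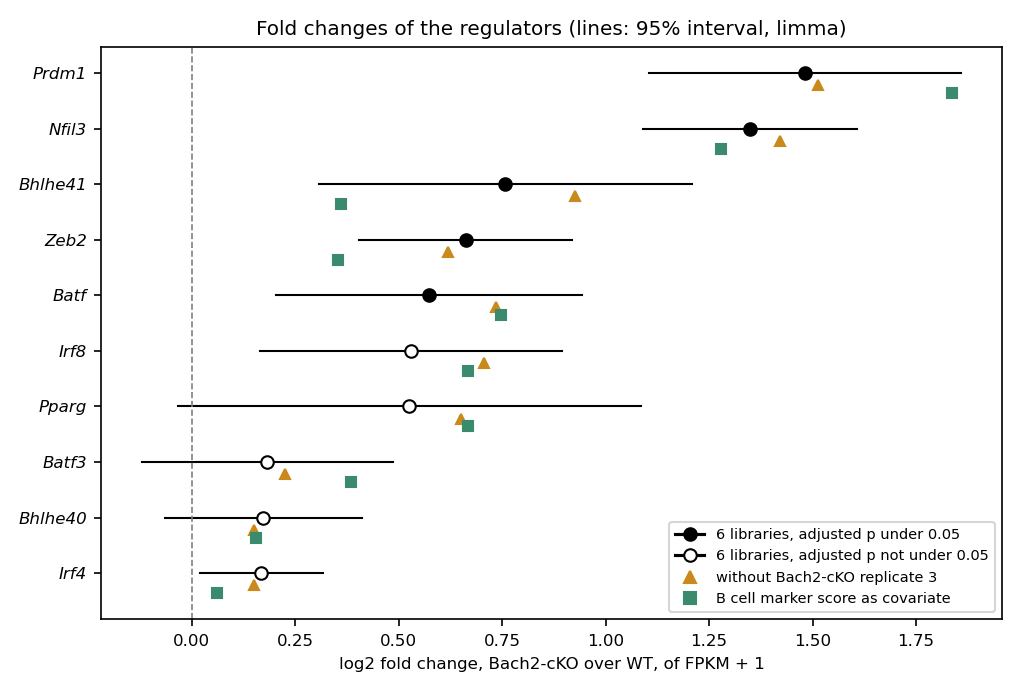
Log2 fold changes of FPKM + 1, Bach2-cKO over WT, are on the horizontal axis with 95% limma intervals over the 6 libraries (filled circles passed, open circles did not), triangles without Bach2-cKO replicate 3 and squares with the B cell marker score as a covariate. Prdm1 (1.48) and Nfil3 (1.35) lie to the right of all others. The squares of Bhlhe41 (0.36), Zeb2 (0.35), Nfil3 (1.28), Irf4 (0.061) and Bhlhe40 (0.15) lie nearer to 0 than their circles. Those of Prdm1 (1.84), Batf (0.75), Irf8 (0.67), Pparg (0.67) and Batf3 (0.39) lie farther from 0.

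Prdm1, Nfil3 and Zeb2 passed in all 6 fits that leave out a library, with log2 fold changes of 1.34 to 1.68 for Prdm1, 1.27 to 1.45 for Nfil3 and 0.60 to 0.77 for Zeb2. Batf passed in 2 and Bhlhe41 in 1 of those fits, as given above. With no filter on low values, which put 28530 genes into the test, Batf (limma adjusted p = 0.150) and Bhlhe41 (0.122) did not pass. With the mean of the B cell markers as a covariate, none of the 10 regulators passed. Under it Prdm1 had a log2 fold change of 1.84 (limma adjusted p = 0.0604), Nfil3 1.28 (0.0688), Batf 0.75 (0.326), Bhlhe41 0.36 (0.644) and Zeb2 0.35 (0.381). That score was 6.37, 6.70 and 6.45 on the log2 scale in Bach2-cKO libraries, against 5.89, 6.27 and 5.93 in WT libraries, so it separated the labels, and the same fit called 30 genes higher and 34 lower of all tested.

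Markers of other cells moved with the labels. Of the 12 B cell markers 5 rose and none fell. Of 6 tested plasma cell markers 4 rose (Mzb1, Jchain, Pou2af1 and Derl3), Sdc1 had 8.41 ± 2.01 FPKM in Bach2-cKO and 8.66 ± 1.14 FPKM in WT (SD, n = 3 each) and did not pass, and Tnfrsf17, a receptor of mature plasma cells, was at most 0.153 FPKM in Bach2-cKO libraries and at most 0.336 FPKM in WT libraries. The plasma cell markers summed to 414 to 602 FPKM in Bach2-cKO libraries and 252 to 290 FPKM in WT libraries. Of the 4 tested markers of CD8 T and natural killer cells 3 rose, with sums of 89.4 to 144 FPKM in Bach2-cKO libraries and 58.2 to 64.6 FPKM in WT libraries.

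Dendritic cells also express Irf8, Batf3 and Zeb2. Of their 6 tested markers 1 rose (Ccr9) and 1 fell (Flt3), the list summed to 335 to 448 FPKM in Bach2-cKO libraries and 380 to 510 FPKM in WT libraries, most of it Cst3, and Clec9a, a marker of the BATF3-dependent lineage, was at most 0.0526 FPKM in Bach2-cKO libraries and at most 0.0999 FPKM in WT libraries. Xcr1, another marker of that lineage, had 1.52, 1.56 and 1.69 FPKM in Bach2-cKO libraries, against 0.461, 0.763 and 0.949 FPKM in WT libraries, and did not pass (log2 fold change 0.60, limma adjusted p = 0.0512) although the groups did not overlap. Itgax had 4.01 ± 0.62 FPKM in Bach2-cKO and 2.04 ± 1.19 FPKM in WT (SD, n = 3 each; limma adjusted p = 0.0867). Of the monocyte and macrophage markers, with sums of 42.9 to 57.4 FPKM in Bach2-cKO libraries and 30.7 to 33.5 FPKM in WT libraries, none of the 3 tested passed, and Csf1r was at most 0.302 FPKM in Bach2-cKO libraries and 0.249 FPKM in WT libraries. Of these, Ly6c2 had 33.5, 23.98 and 19.6 FPKM in Bach2-cKO libraries, against 18.7, 13.4 and 9.26 FPKM in WT libraries (log2 fold change 0.87, limma adjusted p = 0.0617). The macrophage marker Adgre1, too low to be tested, had 0.963, 1.29 and 1.09 FPKM in Bach2-cKO libraries, against 0.458, 0.589 and 0.351 FPKM in WT libraries, so neither gene overlapped between the labels. Of the 9 T cell and Treg markers Il2ra rose, Cd3g fell and 7 did not pass, with sums of 2455 to 2883 FPKM in Bach2-cKO libraries and 2353 to 2753 FPKM in WT libraries.

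The regulators did not all follow the B cell markers within a label. Among WT libraries the B cell score was highest in replicate 2, where Prdm1 (10.04 FPKM), Batf (44.8 FPKM), Irf8 (274 FPKM) and Pparg (2.22 FPKM) were at the lowest of their group. Zeb2 (19.2 FPKM), Batf3 (23.6 FPKM), Bhlhe40 (72.1 FPKM) and Irf4 (62.8 FPKM) were at their highest there. Among Bach2-cKO libraries the B and plasma cell scores were highest in replicate 2, which also had the highest Bhlhe41 (11.2 FPKM), Nfil3 (72.8 FPKM), Irf4 (72.5 FPKM) and Pparg (6.27 FPKM). The same library had the lowest Batf3 (22.1 FPKM) and Bhlhe40 (65.8 FPKM) of its group. With 3 libraries a label this is a description, and the part of other cells in these values was not tested beyond the covariate fit.

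**Figure D3:**
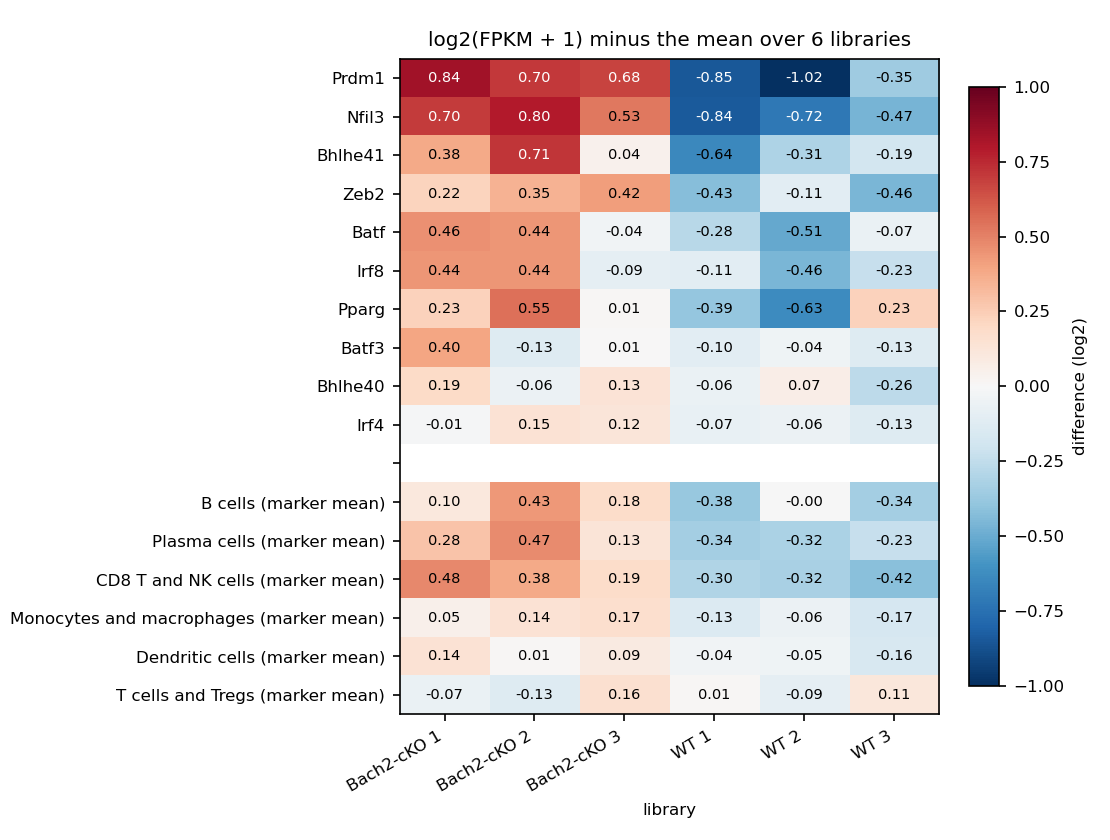
The colour of each cell gives log2(FPKM + 1) minus the mean over the 6 libraries for the 10 regulators (upper rows) and for the mean of each marker list (lower rows), with Bach2-cKO libraries in the left columns and WT libraries in the right. Prdm1, Nfil3, Bhlhe41 and Zeb2 run above 0 in all Bach2-cKO libraries and below 0 in all WT libraries, as do the means of the marker lists other than T cells and Tregs.

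Levels were ordered on the FPKM scale, per length. In Bach2-cKO libraries the order was Irf8, then Batf, Bhlhe40, Irf4 and Nfil3, whose ranges over libraries overlap from each to the next, then Prdm1, then Zeb2 and Batf3 with overlapping ranges, then Bhlhe41 and Pparg. In WT libraries Irf8 again led, followed by Bhlhe40, Irf4 and Batf with overlapping ranges, then Nfil3 and Batf3, then Zeb2 and Prdm1, and last Bhlhe41 and Pparg, each of these pairs overlapping. Nfil3 thus ranged with Irf4 in Bach2-cKO libraries and with Batf3 in WT libraries.

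This order depends on the length behind the FPKM. The deposited values divide by a transcript length of 2189 bases for Zeb2, whose annotated exons together cover 19942 bases, and of 1575 for Irf8, whose exons cover 7055, while for Nfil3 both are 2026. Per kilobase of all exons, Zeb2 came to 2.91 in Bach2-cKO and 1.80 in WT and Irf8 to 102 in Bach2-cKO and 70.2 in WT (means, scaled to the library total as FPKM are). On that scale Irf8 still led both groups and Zeb2 ranked next to Bhlhe41. The length cancels in a fold change of 1 gene apart from the pseudocount.

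Ratios within a library set related or opposing factors against each other. The log2 ratio of Prdm1 to Bcl6, the repressor of follicular cells that opposes BLIMP-1, was 0.88, 0.56 and 0.69 in Bach2-cKO libraries, against -0.81, -0.72 and -0.13 in WT libraries. Prdm1 was thus above Bcl6 in each Bach2-cKO library and below it in each WT library on the log2(FPKM + 1) scale. The difference was 1.26 (exact two-sided permutation p = 0.1, the smallest that 3 against 3 allows, 0.25 adjusted over 5 ratios), with Bcl6 itself at 21.97 ± 1.61 FPKM in Bach2-cKO and 18.8 ± 1.91 FPKM in WT (SD, n = 3 each; limma adjusted p = 0.168).

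The log2 ratio of Zeb2 to Zeb1 was -0.084, -0.13 and -0.18 in Bach2-cKO libraries, against -1.59, -1.14 and -1.27 in WT libraries. The groups did not overlap, and the difference was 1.201 (exact permutation p = 0.1, 0.25 adjusted). The ratio of Irf8 to Irf4 averaged 2.69 ± 0.35 in Bach2-cKO and 2.33 ± 0.19 in WT, a difference of 0.36 with overlapping groups (SD, n = 3 each; exact permutation p = 0.3). The ratio of Bhlhe41 to Bhlhe40 averaged -2.94 ± 0.44 in Bach2-cKO and -3.52 ± 0.34 in WT, a difference of 0.58 with overlapping groups (SD, n = 3 each; exact permutation p = 0.2, 0.25 adjusted).

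**Figure D4:**
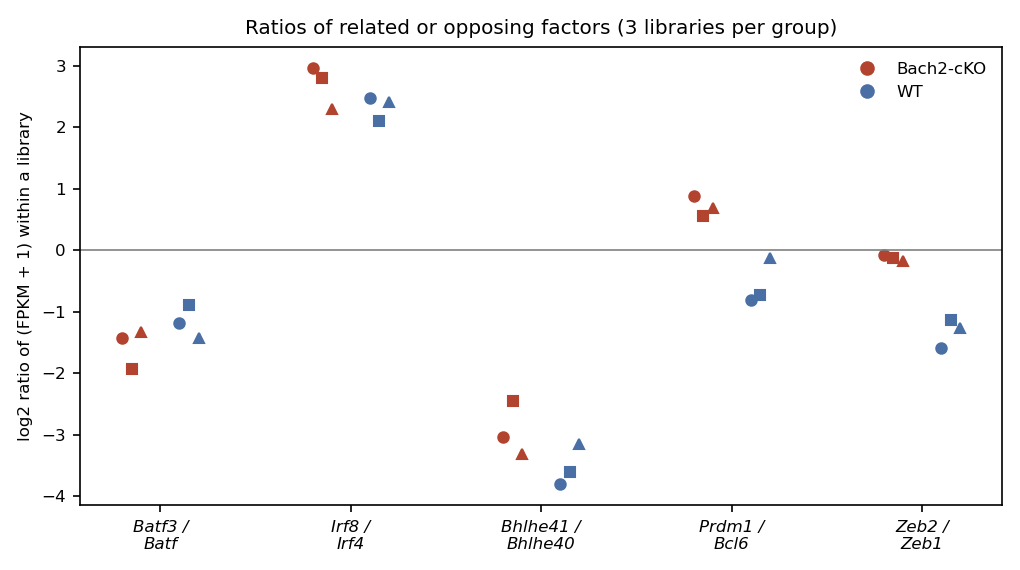
The vertical axis is the log2 ratio of FPKM + 1 of a pair of genes within a library, with Bach2-cKO libraries left of WT libraries for each pair and symbols for replicates 1 (circle), 2 (square) and 3 (triangle). Prdm1 over Bcl6 is above 0 in the 3 Bach2-cKO libraries and below 0 in the 3 WT libraries, and Zeb2 over Zeb1 is separated, while the other 3 pairs overlap.

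Genes around the regulators were counted in 7 lists of 101 distinct genes, of which 92 were tested. Of these 29 rose, 8 fell and 55 did not pass, and their median log2 fold change was 0.20. A list labelled BATF partners held the AP-1 genes Jun, Junb, Jund, Jdp2 and Batf2. It also held Spi1 and Spib, whose products partner IRF4 and IRF8 rather than BATF. Of these 7 genes 2 rose and none fell, with a median of 0.42, which is the value of Spi1. Jdp2, a repressing AP-1 factor, rose to 17.9 ± 0.83 FPKM in Bach2-cKO libraries, against 10.7 ± 2.02 FPKM in WT libraries (SD, n = 3 each; limma adjusted p = 0.0121), and Jund rose to 142 ± 13.5 FPKM in Bach2-cKO libraries, against 110.4 ± 7.61 FPKM in WT libraries (adjusted p = 0.0321). Jun (log2 fold change 0.44) and Spi1 (0.42) did not pass. Without Bach2-cKO replicate 1, Bach2-cKO replicate 2, WT replicate 1 or WT replicate 3, 1 of the 7 rose.

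Of 10 other genes of IRFs and IRF2-binding proteins 1 rose, 3 fell and 6 did not pass, with a list median of -0.21. The gene that rose was Irf5, an IRF of B cells and myeloid cells. It had 86.6, 92.0 and 93.6 FPKM in Bach2-cKO libraries, against 68.8, 78.9 and 71.0 FPKM in WT libraries. The groups did not overlap, and Irf5 rose by 0.31 on the log2 scale (limma adjusted p = 0.0232), a call that was lost without Bach2-cKO replicate 2, WT replicate 1 or WT replicate 3. Irf2bp1, a corepressor gene, fell to 17.2 ± 0.58 FPKM in Bach2-cKO libraries, against 23.3 ± 2.35 FPKM in WT libraries (SD, n = 3 each; log2 fold change -0.41, limma adjusted p = 0.0202). Irf2bpl fell to 23.8 ± 2.78 FPKM in Bach2-cKO libraries, against 31.98 ± 3.70 FPKM in WT libraries (SD, n = 3 each; log2 fold change -0.41, limma adjusted p = 0.0488). At least 1 of this pair did not pass without Bach2-cKO replicate 1, Bach2-cKO replicate 2, WT replicate 1 or WT replicate 2.

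Genes of effector Tregs listed by hand as linked to BATF and IRF4 made up the list with the most calls. Whether BATF or IRF4 drives each of them was not tested. Of 26 tested 19 rose, 1 fell and 6 did not pass, with a median log2 fold change of 0.70. The number that rose was 11 without WT replicate 1 and 12 without Bach2-cKO replicate 2. Leaving out Bach2-cKO replicate 3 gave 2 that fell. The list was drawn up with earlier results of these libraries known, so its direction is not independent evidence. Il1rl1, the interleukin-33 receptor, had 95.4, 91.2 and 77.1 FPKM in Bach2-cKO libraries, against 19.9, 14.3 and 21.8 FPKM in WT libraries, and rose by 2.19 on the log2 scale (limma adjusted p = 0.000329). Itgae, the integrin CD103, rose by 1.13 (adjusted p = 0.00210) and Maf, a leucine zipper factor of interleukin-10 producing cells, by 0.93 (0.00214). Ccr6, a chemokine receptor, fell to 11.6 ± 1.27 FPKM in Bach2-cKO libraries, against 20.8 ± 1.204 FPKM in WT libraries (SD, n = 3 each; adjusted p = 0.00229).

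The mean of this list on the log2 scale was 6.57, 6.54 and 6.54 in Bach2-cKO libraries, against 5.76, 5.56 and 5.99 in WT libraries. Among WT libraries it was highest in replicate 3 and lowest in replicate 2, the same order as Prdm1, Batf and Pparg. Among Bach2-cKO libraries, where the list means were close together, those genes had other orders than the list. Tnfrsf4 and Tnfrsf18, costimulatory receptors of all Tregs, were among the 6 that did not pass, with log2 fold changes of -0.039 and -0.10, and were chosen here after their values were seen.

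Targets and antagonists of BLIMP-1 moved in both directions. Of 11 tested, 4 rose (Xbp1, Pax5, Ciita and Il10) and 2 fell (Tcf7 and Id3), with a list median of 0.22. Tcf7, which encodes TCF-1 of central and follicular cells, fell to 71.6, 72.0 and 85.9 FPKM in Bach2-cKO libraries, against 218, 210 and 173 FPKM in WT libraries (log2 fold change -1.37, limma adjusted p = 0.000523). Id3 fell to 26.2 ± 6.53 FPKM in Bach2-cKO libraries, against 71.4 ± 17.4 FPKM in WT libraries (SD, n = 3 each; adjusted p = 0.00449). Tcf7 and Id3 are genes that BLIMP-1 represses in T cells, but the rest of the list did not all move with them. The 5 that did not pass, named after their values were seen, were Cxcr5 (log2 fold change 0.48), Bcl6 (0.22), Spib (0.098), Bach2 (-0.048) and Myc (-0.46). Cxcr5 had 58.6, 66.6 and 43.7 FPKM in Bach2-cKO libraries, against 40.3, 36.3 and 41.7 FPKM in WT libraries (limma adjusted p = 0.0629), without overlap.

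Of the 4 that rose, Pax5 and Ciita are also genes that BLIMP-1 represses, in plasma cells, and Pax5, also on the B cell marker list, had 285 ± 32.1 FPKM in Bach2-cKO and 181 ± 17.3 FPKM in WT (SD, n = 3 each; limma adjusted p = 0.00623). Xbp1, the secretory regulator of plasma cells that T cells also express, rose to 240 ± 32.2 FPKM in Bach2-cKO libraries, against 125 ± 17.5 FPKM in WT libraries (adjusted p = 0.00334). Il10, whose product effector Tregs release, had 34.6, 42.6 and 31.99 FPKM in Bach2-cKO libraries, against 9.93, 12.1 and 21.3 FPKM in WT libraries (adjusted p = 0.0117). Ciita and Il10 are named here after their values were seen.

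Of 9 tested genes linked to ZEB2 in terminal effector cells 5 rose (Gzma, Klrg1, Gzmb, Tbx21 and Id2), 1 fell (Zeb1) and 3 did not pass, with a median of 0.86. The number that rose was 2 without WT replicate 3 and 3 without Bach2-cKO replicate 1, Bach2-cKO replicate 2, WT replicate 1 or WT replicate 2, and none fell without Bach2-cKO replicate 2, WT replicate 1 or WT replicate 2. Gzma, a granzyme, had 131, 137 and 56.6 FPKM in Bach2-cKO libraries, against 14.0, 9.14 and 8.59 FPKM in WT libraries (log2 fold change 3.16, limma adjusted p = 0.00137). Gzmb had 1167, 814 and 385 FPKM in Bach2-cKO libraries, against 253, 191 and 211 FPKM in WT libraries. Cd8b1, a CD8 T cell marker, had 52.9, 42.2 and 28.6 FPKM in Bach2-cKO libraries, against 21.9, 22.4 and 21.5 FPKM in WT libraries, in the same order over Bach2-cKO libraries as Gzmb and in the opposite order to Zeb2. Its part in the granzyme values was not tested.

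Lipid genes linked to PPAR-gamma and circadian clock genes showed few calls. None of the 15 tested lipid genes passed in limma, and 4 had an unadjusted p under 0.05, Scd1 (log2 fold change 0.54), Rxra (0.26), Rxrb (-0.17) and Cd36 (0.56). Over all tested genes 30.8% had an unadjusted p under 0.05, so this count is near the background. Leaving out Bach2-cKO replicate 3 or WT replicate 2 called 1 lipid gene. The adipocyte target Fabp4 was at most 0.683 FPKM in Bach2-cKO libraries and at most 0.442 FPKM in WT libraries. Of 19 clock genes, with which Nfil3, Bhlhe40 and Bhlhe41 are grouped by their role in the clock, Hlf rose (0.63) and Dbp fell (-0.65), the activators of D box genes that NFIL3 opposes. The clock list had a median of -0.0045, and Per1 (-0.30, limma adjusted p = 0.0523) and Cry2 (-0.31) did not pass. Over the fits that leave out a library, 0 to 1 clock genes rose and 0 to 4 fell, the most without Bach2-cKO replicate 3.

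**Figure D5:**
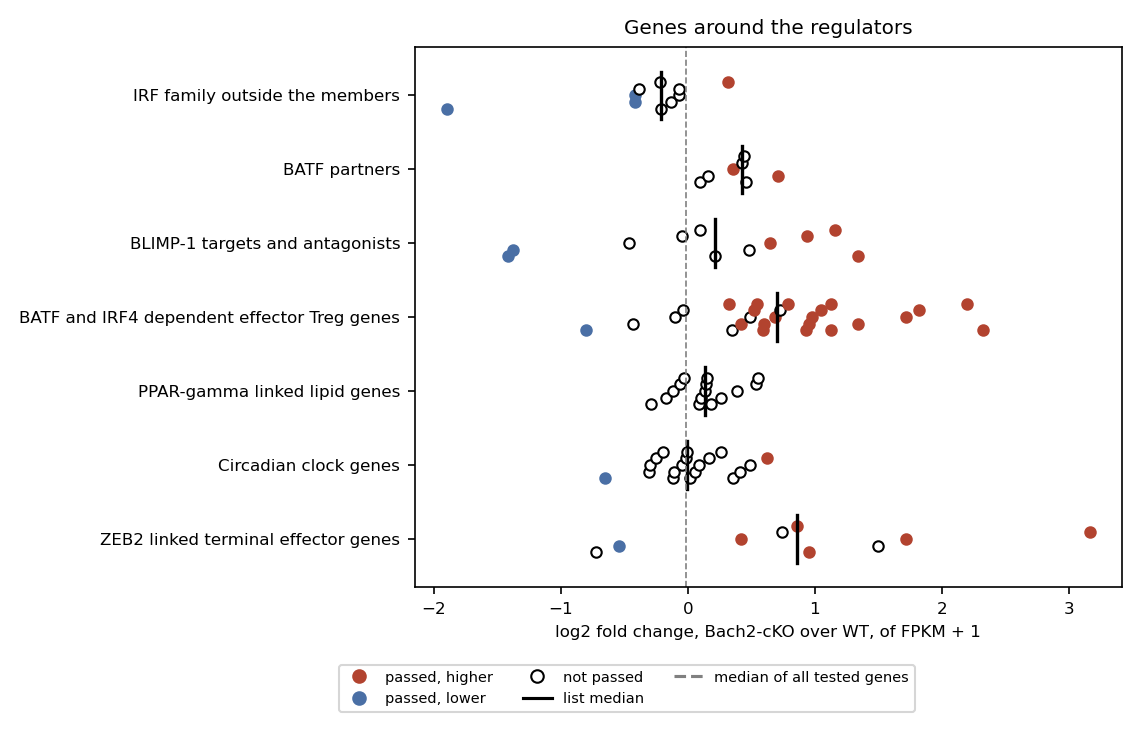
Each point is the log2 fold change of FPKM + 1, Bach2-cKO over WT, of 1 tested gene of a list (red passed and higher, blue passed and lower, open not passed), with a black line at the list median and a dashed line at the median of all tested genes (-0.017). The BATF and IRF4 list holds 19 red points of 26, and the PPAR-gamma list holds none of 15.

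The genes with profiles most like those of the regulators that rose were found by the root mean square difference of centred log2(FPKM + 1) values over the 6 libraries, leaving out predicted genes and pseudogenes. For Prdm1 they were Nckap5 (0.105), Oit3 (0.123) and Sv2c (0.128). For Nfil3 they were Rbpj (0.0706), Slc1a1 (0.0894) and Cyp11a1 (0.0926), of which Rbpj, the DNA-binding partner of Notch, had 128 FPKM in Bach2-cKO and 51.9 FPKM in WT as means. Slc1a1 (2.28 in Bach2-cKO against 0.433 FPKM in WT), Cyp11a1 (3.16 against 0.499) and Nckap5 (3.75 against 0.756) had WT means under 1 FPKM. They may have entered the test through the Bach2-cKO libraries. At such levels the pseudocount of 1 shrinks log2 differences, so their likeness holds on that scale only. For Batf they were Lap3 (0.0407), Knl1 (0.0458) and E2f8 (0.0676), and for Zeb2 Txnrd1 (0.0378), Myadm (0.0683) and Ighv13-2 (0.0690).

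For Bhlhe41 the nearest were Ighv3-6 (0.0615), Lat2 (0.0674) and Pou2af1 (0.0734). Ighv3-6 is an immunoglobulin heavy chain variable gene and Pou2af1 is on the plasma cell marker list, with 240, 305 and 204 FPKM in Bach2-cKO libraries, against 120, 150 and 146 FPKM in WT libraries. Ighv13-2, named for Zeb2, is also an immunoglobulin heavy chain variable gene.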

How the data were processed

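Poly(A) RNA of 3 Bach2-cKO and 3 WT libraries was prepared with a TruSeq kit and sequenced on a NovaSeq instrument, per the labels. Per the submitters' processing notes, HISAT2 2.0.5, featureCounts 1.5.0-p3 and the build mm9 were used. The authors deposited FPKM per gene and library, and the 6 files of single libraries equal the table of the series. Gene positions equal GENCODE M21 on GRCm38 for 91.5% of matched identifiers and are given on that build.

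FPKM came out as whole reads at a tolerance of 0.001 reads for all 28530 genes above 0, for 24193 of them with the mean transcript length as divisor. For 4307 others, among them Prdm1, Irf4, Irf8 and Batf, lengths were searched until the reads came out whole. Whole reads for those genes follow in part from that search. The recovered reads served for depth and 1 alternative. Replicates differed by more than sampling noise (chi-square per degree of freedom 10.4 to 23.7). The plan named limma for FPKM and a count test only if counts were given. The deposited values are FPKM, so limma 3.58.1 in R 4.3.3 (lmFit, eBayes with trend) was run on log2(FPKM + 1), a pseudocount of 1. The fit had no covariate, was two-sided, at an adjusted p under 0.05, and was tested on simulated data. The genes named by rule are the 10 regulators, up to 4 genes per list by p, 3 nearest profiles per regulator that rose, defining markers, Bach2 and Bcl6. Named outside this rule, some after their values were seen, were Fabp4, Tbx21, Id2, Ciita, Il10, Cxcr5, Spib, Myc, Tnfrsf4, Tnfrsf18, Junb and Batf2. Members and lists were chosen with earlier results of these data known. Alternatives were median-ratio scaling, limma-voom on recovered reads, 2 other filters, a pseudocount of 0.1, the replicate block, the B cell score as covariate and leaving out each library. Promoters are RefSeq sequences on GRCm38.p6, searched over the 250 bases before each start. Plots were made in Matplotlib 3.10.9 (Python 3.11.15). A gene of the lists is not reported here by name.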

Additional observations from a re-analysis of the deposited data

How the results depend on the processing

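Deviations of same-numbered libraries correlated at -0.0526, 0.00578 and -0.215, and those of differently numbered libraries at -0.134 to 0.177. Such correlations do not decide whether the replicate number pairs the libraries. With the number as a block, 3 regulators rose (Prdm1, Nfil3 and Zeb2), 23 list genes rose and 5 fell, and 625 of all genes rose and 657 fell. The paired exact p of the ratios was 0.25 for Prdm1 to Bcl6 and for Zeb2 to Zeb1, the smallest that 3 pairs allow. It was 0.5 for the other ratios.

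Among the values of the regulators under alternatives, 108 kept direction and call, 19 lost the call, 2 gained it and none reversed. With no filter, 3 regulators, 11 list genes and 501 of all genes rose, and 4 list genes and 681 of all genes fell. With the B cell score, 0 regulators passed in limma, 2 list genes rose and 1 fell, and 30 of all genes rose and 34 fell. Over the 6 fits that leave out a library, 3 to 6 regulators rose, 16 to 30 list genes rose and 4 to 13 fell, and 492 to 1224 of all genes rose and 560 to 1375 fell, the fewest without Bach2-cKO replicate 2 or WT replicate 1 and the most without Bach2-cKO replicate 3. Median-ratio scaling moved the share of rises among calls to 50.7% from 45.8%. The cause of these changes was not tested. Some of these fits also had fewer libraries, fewer degrees of freedom or more genes tested. Pparg had the fewest reads of the regulators, 80 in WT replicate 2.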
